A study of Rattus norvegicus with 2 samples.

Results

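The genes of protein synthesis were compared between uncultured rat lung cells and a control RNA from cultured cells. They comprised every probe whose annotated symbol is that of a cytosolic ribosomal protein (Rpl or Rps, without the Rps6k kinases), a gene named for an initiation factor (Eif) or an elongation factor (Eef), or a cytosolic tRNA synthetase. This gave 238 of the 40012 probes on the array, which stand for 152 of the 15611 named genes. These were 75 ribosomal protein genes, 52 initiation factor genes, 9 elongation factor genes and 16 synthetases. Of the 18 synthetases searched for, those of aspartate (Dars) and glycine (Gars) had no probe under that symbol. Some symbols reach beyond the factors themselves, since the Eif name also covers 4 Argonaute genes of RNA silencing (once Eif2c1 to Eif2c4), 4 kinases of eIF2 and 3 proteins that bind eIF4E.

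The lung group held 2 untreated samples, replicates 1 and 2, each hybridised in Cy3 on a 2-colour Agilent array. Mix1, the control RNA, was carried in Cy5 on both arrays and came from cultured rat cells, namely bone marrow cells mixed with primary fibroblasts of the ear, all kept in serum-containing medium. The sources used here give no strain, age, sex or way of making lung into cells, nor the proportions of the mixture. Nothing in the labels ties the lung samples to different animals, so p-values measure only the spread between the arrays, and that spread may be technical. All values are the authors' deposited log2 ratios, read as lung over mix1. That direction is likely and not stated outright: with it, all 7 lung epithelial markers were higher in lung (surfactant protein gene Sftpc at 7.04 and 7.01 in replicates 1 and 2), and with the sign turned every direction below would be the opposite. Lung was in the same dye on both arrays, so the difference between the RNAs and a dye effect cannot be told apart, and the number of arrays limits the precision. Fewer cells of a type and less RNA per cell cannot be told apart in such bulk RNA.

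Ribosomal proteins build the particle that reads mRNA, and cells make them in nearly equal numbers. Initiation factors bring the first tRNA and the mRNA to the small subunit, with eIF2 carrying the initiator tRNA, eIF2B recharging eIF2 with GTP, eIF3 acting as a scaffold and the eIF4 proteins binding and unwinding the capped end of the mRNA. Elongation factors deliver the later tRNAs and move the ribosome along, and tRNA synthetases attach each amino acid to its tRNA. When amino acids run short, eIF2 kinases slow initiation and the transcription factor ATF4 switches on amino acid transporters, biosynthetic enzymes and synthetase genes.

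The classes of the translation machinery did not move together. All 16 synthetases were lower in lung, with a median log2 ratio of -1.32 over the genes (-1.30 in replicate 1 and -1.32 in replicate 2). Ribosomal protein genes were centred near 0, at a median of -0.01, with 29 higher, 29 lower and 17 that did not pass. Initiation factor genes had 19 higher and 25 lower of 52 (median -0.12), and elongation factor genes 1 higher and 4 lower of 9 (median -0.08). These calls are from limma's moderated test of the ratio against 0, with a Benjamini-Hochberg adjusted p under 0.05 over all genes. The test called 82.7% of all 15611 genes (32.9% higher and 49.7% lower in lung, median -0.22), so a call alone says little. At the stricter size of at least 2-fold lower in both arrays, which 15.8% of all genes reached, stood 10 of 16 synthetases, 12 of 52 initiation factor genes, 1 of 9 elongation factor genes and 3 of 75 ribosomal protein genes. In the other direction, 6 ribosomal protein genes and 3 initiation factor genes were higher by 2-fold or more in each array, with no elongation factor gene and no synthetase, beside 16.5% of all genes.

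The array medians were not at 0, and centring, which subtracts them, shifted all genes up by 0.19 in replicate 1 and 0.26 in replicate 2. The synthetases then had a median of -1.10 with 14 of 16 lower, while 78.3% of all genes were called and 37.9% were lower. With the medians subtracted, the ribosomal protein median turned to 0.21 (37 higher, 14 lower), that of initiation factor genes to 0.10 (23 higher, 22 lower) and that of elongation factor genes to 0.14 (4 higher, 3 lower), beside 40.4% of all genes higher. The direction of the median in these 3 classes thus depends on the centring. Arrays agreed closely, with a median SD of 0.023 (n = 2) over the members. Markers of cell types differed between the RNAs: all 6 markers of dividing cells were lower in lung (median -3.25, from -4.28 to -1.79) and all 7 markers of cultured stromal cells were lower (median -6.22), while all 5 endothelial and all 6 leukocyte markers were higher (medians 3.61 and 3.72). Their part in the results was not tested.

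**Figure D1:**
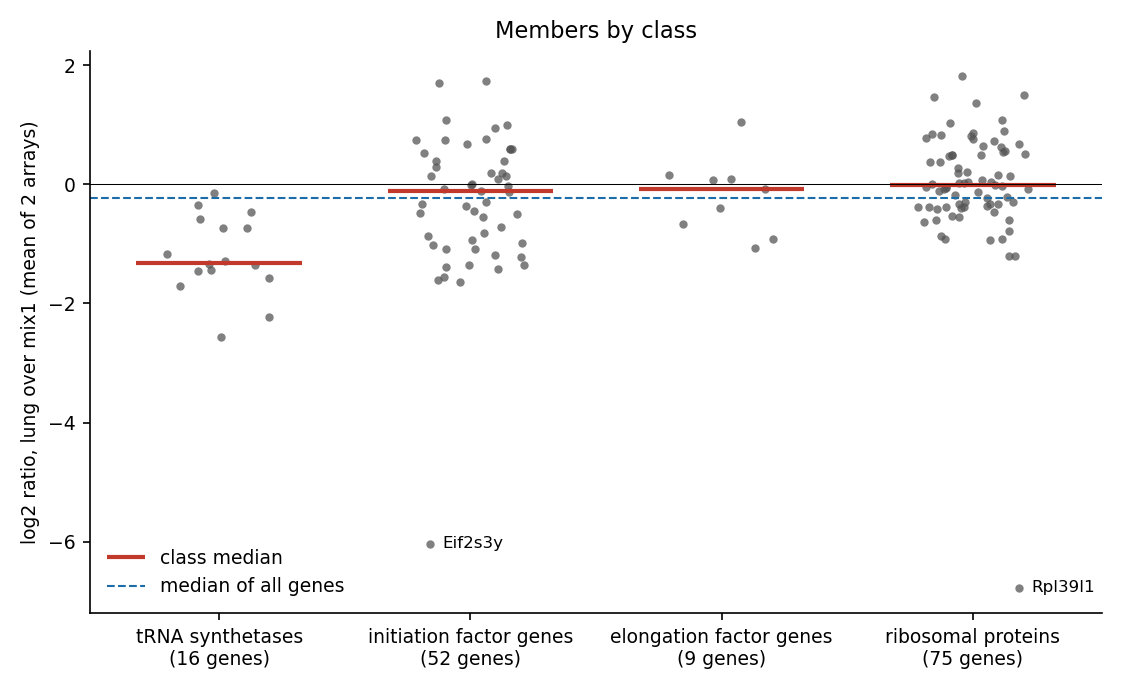
Each point is 1 gene, its log2 ratio of lung over mix1 averaged over the 2 arrays, in 4 classes. Red bars are class medians and the dashed line is the median of all genes at -0.22. The synthetases lie below that line except Hars1 and have a median of -1.32, whereas the other classes spread to both sides of it; Eif2s3y and Rpl39l1 lie far below the rest.

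Among the synthetases, the valine enzyme Vars1 was the lowest, at -2.55 in replicate 1 and -2.56 in replicate 2, which is 5.89-fold lower in lung (limma adjusted p 0.0012). The threonine enzyme Tars1 lay at -2.26 and -2.18, or 4.66-fold lower, and the cysteine enzyme Cars1 at -1.71 in both arrays, or 3.27-fold lower. Both arrays put each of Vars1, Tars1 and Cars1 in nearly the same place, and the gaps between these genes exceed the differences between the arrays. Each had 1 probe, and the probes of a member with several spanned 0.52 in the median, so their order may depend on the probes. The alanine enzyme Aars1 (-1.59 and -1.56), the serine enzyme Sars1 (-1.45 and -1.47), the asparagine enzyme Nars1 (-1.47 and -1.41) and the tyrosine enzyme Yars1 (-1.34 and -1.38) followed. The tryptophan enzyme Wars1 (-1.37 and -1.32), the methionine enzyme Mars1 (-1.26 and -1.32) and the arginine enzyme Rars1 (-1.13 and -1.20) completed the 10 that were at least 2-fold lower in both arrays. Limma's treat test against a 2-fold change called 9 synthetases lower, all of these but Rars1 (treat adjusted p 0.0661). It called 25.8% of all genes, with 12% of all genes lower and 13.7% higher. The least changed was the histidine enzyme Hars1 at -0.14 and -0.15. Its call (limma adjusted p 0.0385) and that of the isoleucine enzyme Iars1 (-0.33 and -0.38) ended when the array medians were subtracted, with Hars1 then at 0.08 (limma adjusted p 0.411).

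Between these ends stood the lysine enzyme Kars1 (-0.73 and -0.74), the glutamate and proline enzyme Eprs1 (-0.72 and -0.73), the leucine enzyme Lars1 (-0.57 and -0.58) and the glutamine enzyme Qars1 (-0.42 and -0.51). Together with Iars1, Mars1 and Rars1 these are the measured enzymes of the multisynthetase complex, a particle that holds several synthetases together. That grouping was made after the values were seen. The 7 complex enzymes had a median of -0.73 (from -1.29 to -0.35), with 2 at least 2-fold lower in both arrays. The 9 other synthetases had a median of -1.46 (from -2.56 to -0.14), with 8 at least 2-fold lower. The scaffold proteins of the complex were lower too: Aimp2 lay at -1.36 in both arrays, Aimp1 at -0.59 and -0.61, and Eef1e1, the scaffold that carries an elongation factor name, at -0.93 and -0.92. Farsb, the beta chain of the phenylalanine enzyme, lay at -1.21 and -1.06.

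Probes of 1 synthetase did not always agree. The Nars1 probes lay at -2.50 and -0.38 in the mean, and the Eprs1 probes at -1.52 and 0.06. Counted singly, 22 of the 23 synthetase probes were lower, and the exception was that Eprs1 probe, which did not pass. The probe sequences were not used here, so which transcripts each probe reads is unknown.

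**Figure D2:**
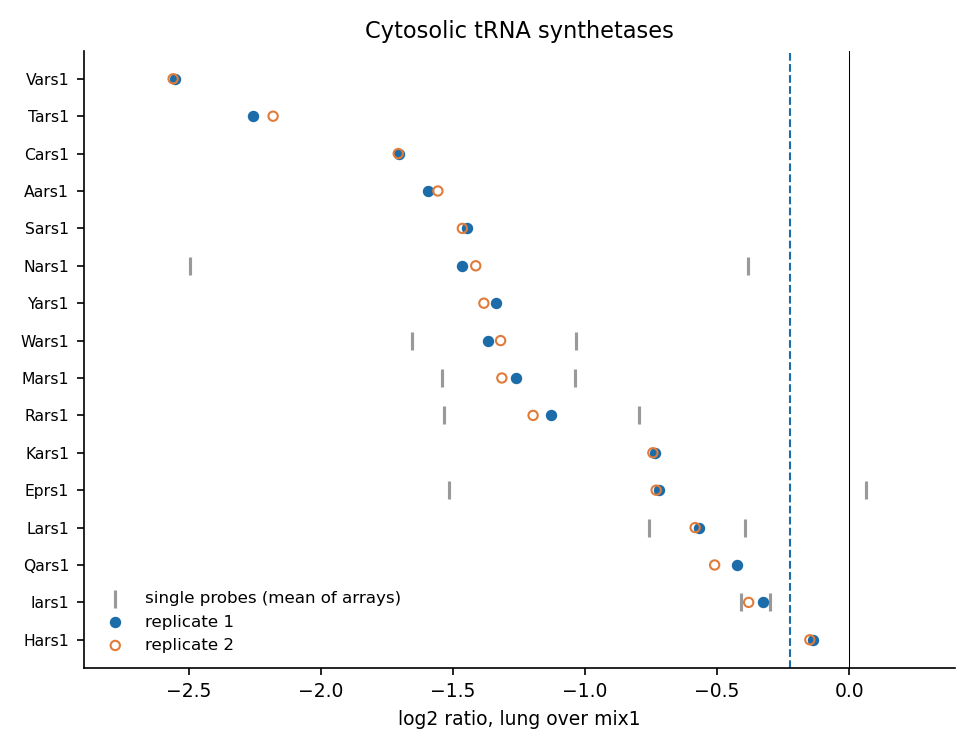
Log2 ratio of lung over mix1 for the 16 measured cytosolic tRNA synthetases, from the lowest at the top to the highest. Filled and open circles are replicates 1 and 2, and grey ticks are the single probes of genes with several. The dashed line is the median of all genes (-0.22) and the solid line is 0. All genes lie below 0 in both arrays, and the Nars1 and Eprs1 probes lie far apart.

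Mitochondrial synthetases are encoded by separate nuclear genes in nearly every case. Of 14 measured, 8 were lower (57.1%), 3 higher and 3 did not pass (median -0.29), near the 49.7% lower and the median of -0.22 of all genes. After centring, 5 were lower and 5 higher. The proline enzyme Pars2 was lowest at -1.12 and -1.11, and the cysteine enzyme Cars2 highest at 0.99 and 0.92, opposite in sign to its cytosolic counterpart Cars1. The difference between the cytosolic and mitochondrial sets was not tested.

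Genes of the ATF4 and amino acid response were lower together with the synthetases. Of 23, 20 were lower, 1 was higher and 2 did not pass (median -1.50, and after centring 17 lower and 3 higher). Among all genes, 49.7% were lower as deposited and 37.9% after centring. Chac1, a glutathione-degrading enzyme, lay at -3.99 and -3.72, the amino acid transporter Slc7a5 at -3.29 and -3.12, the folate enzyme Mthfd2 at -2.57 and -2.53 and asparagine synthetase (Asns) at -1.78 and -1.70. The exceptions included Atf4 itself, whose mRNA lay at 0.05 and 0.06 and did not pass (limma adjusted p 0.188), and its dimer partner Cebpg, which was higher at 0.24 and 0.41. Slc3a2 lay at 0.004 and -0.001 and did not pass either. After centring, Atf4 (0.28), Slc3a2 (0.22) and Cebpg (0.54) were called higher, and the calls of Psph, Slc7a11 and Atf3 were lost. ATF4 is known to be controlled mainly at its translation, which these arrays do not measure. The part of ATF4 in these ratios was not tested.

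The promoters of the synthetases were read for the DNA element to which ATF4 binds with C/EBP proteins, since amino acid response genes carry it. RefSeq windows of assembly GRCr8, from 250 bases before to 50 bases after the annotated start, were matched for 132 of the 152 genes, 15 of them synthetases. The letters TGATGNAA, on either strand, occurred in 7 of these 15 windows (46.7%), against 3.82% of 27457 genes with a window, 2 of 62 ribosomal protein genes, 2 of 47 initiation factor genes and 0 of 8 elongation factor genes. The 7 stretches are shown because the element was found in a larger share of synthetase windows than of the other classes, though in 8 of the 15 it was not found. Matching letters are in capitals:
Tars1 (chr2:62114802-62114849, minus strand): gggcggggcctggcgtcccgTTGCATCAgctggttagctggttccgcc
Cars1 (chr1:208225325-208225372, minus strand): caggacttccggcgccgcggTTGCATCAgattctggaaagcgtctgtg
Aars1 (chr19:55908350-55908518, plus strand): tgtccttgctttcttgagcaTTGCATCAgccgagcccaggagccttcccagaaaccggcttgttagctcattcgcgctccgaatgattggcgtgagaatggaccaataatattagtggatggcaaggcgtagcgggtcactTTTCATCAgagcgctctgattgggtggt
Nars1 (chr18:60275769-60275816, minus strand): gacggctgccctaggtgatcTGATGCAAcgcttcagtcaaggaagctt
Yars1 (chr5:146820181-146820212, plus strand): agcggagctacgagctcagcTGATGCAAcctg
Mars1 (chr7:65023743-65023790, minus strand): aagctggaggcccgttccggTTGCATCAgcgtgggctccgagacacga
Iars1 (chr17:15193649-15193696, minus strand): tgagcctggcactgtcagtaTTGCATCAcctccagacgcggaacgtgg
Capitals that end in CATCA are the element read on the opposite strand. The matches began between -112 and 38 bases from the annotated start, and Aars1 held 2 of them. The 7 synthetases with a match had a median ratio of -1.44 (from -2.22 to -0.35), and the 8 without one a median of -0.73 (from -2.56 to -0.14), so the ranges overlap and the lowest gene, Vars1, had no match. The E-box CACGTG, the site of MYC-type factors, occurred in 4 synthetase windows (26.7%, those of Aars1, Iars1, Tars1 and Vars1), in 9 of 47 initiation factor windows (19.1%), 2 of 8 elongation factor windows and 5 of 62 ribosomal protein windows (8.06%), against 6.65% of all windows. A match is a description of these letters and no site of binding.

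The eIF2 complex was split between its subunits. The alpha subunit Eif2s1, on which the eIF2 kinases act, lay at -1.23 and -1.22 and was 2.34-fold lower in lung (limma adjusted p 0.0015). The beta subunit Eif2s2 lay at -0.11 and -0.12 and did not pass. The gamma subunit of the X chromosome, Eif2s3, was higher at 0.73 and 0.74, whereas its Y-linked copy, Eif2s3y, lay at -6.04 and -6.03, which is 65.7-fold lower (limma adjusted p 0.0012) and the lowest value of all initiation factor genes. Eif2s3y had 1 probe, and the size of a ratio with 1 dim channel depends on the background subtraction, which is unknown here. The single probe of Ddx3y, another gene of the Y chromosome, also lay far below 0, at -4.86 and -4.28. The sexes of the animals behind either RNA are unknown here, and their part in these values was not tested.

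Of the 5 subunits of eIF2B, the exchange factor that recharges eIF2, 3 were lower, 1 was higher and 1 did not pass. Among all genes, 49.7% were lower and 32.9% higher. Eif2b1 lay at -1.59 and -1.61 and was 3.04-fold lower. Eif2b3 followed at -1.10 and -1.07 and Eif2b2 at -0.85 and -0.88. Eif2b4 lay at -0.06 and -0.10 without passing, and the catalytic subunit Eif2b5 was slightly higher at 0.16 and 0.13. Values for subunits of 1 complex therefore spanned from -1.60 to 0.15 in the mean.

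In contrast to these factors, 3 of the 4 kinases that phosphorylate eIF2 were higher in lung, beside 32.9% of all genes. PKR (Eif2ak2), which senses double-stranded RNA, lay at 0.92 and 0.96, HRI (Eif2ak1), which senses haem shortage, at 0.75 and 0.74, and GCN2 (Eif2ak4), which senses uncharged tRNA, at 0.60 and 0.58. PERK (Eif2ak3), the kinase of the endoplasmic reticulum, was lower at -0.51 and -0.40. These directions were the same with array medians subtracted. No kinase reached 2-fold in both arrays as deposited, and after centring 1 did, Eif2ak2 (mean 1.16). The Eif2ak2 probes lay at 0.14 and 1.74, so its mean joins unequal probes. PKR is known as an interferon-induced gene, and all 21 measured genes of the interferon response list were higher in lung (median 3.08), from Ifit2 at 0.15 and 0.27 to the antiviral GTPase Mx1 at 5.71 and 5.70. The interferon-stimulated response element was searched on both strands as GAAA, any 2 bases and GAAA again. It occurred in 3.77% of all windows, 4 of 47 initiation factor windows (8.51%) and 5 of 62 ribosomal protein windows (8.06%). Of the other matched members, Eif2s3, Rpl5, Rpl38 and Rps19 were higher, Rps16 and Rpl29 lower, and Eif2a and Eif6 did not pass. The part of interferon in the Eif2ak2 ratio was not tested. The Eif2ak2 window holds a match. The match stands shortly before the annotated start (capitals):
Eif2ak2 (chr6:21941118-21941167, plus strand): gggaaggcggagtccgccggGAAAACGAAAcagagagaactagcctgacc
Wars1, which interferon gamma is known to induce in human cells, had no such match in its window and was lower in lung, as given above.

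The 11 measured subunits of the eIF3 scaffold ran in both directions, with 5 lower (45.5%) and 4 higher (36.4%). These shares are near the 49.7% lower and 32.9% higher of all genes. No subunit was at least 2-fold from 0 in both arrays. Eif3d (mean -0.99), Eif3b (-0.97 and -0.91), Eif3i (-0.82 in both), Eif3l (-0.50 and -0.47) and Eif3c (-0.30 and -0.35) were lower, the last not after centring. Eif3m (0.74 and 0.77), Eif3f (0.43 and 0.36), Eif3j (0.39 and 0.40) and Eif3e (0.12 and 0.15) were higher. Eif3a and Eif3g were within 0.04 of 0 in each array and did not pass. The Eif3a mean hides probes from -0.996 to 0.504.

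Among the cap-binding and helicase factors of eIF4, close relatives went opposite ways. The RNA helicase Eif4a1 lay at -1.19 and -1.20, or 2.29-fold lower in lung (limma adjusted p 0.0015), and all 5 of its probes were below 0, from -1.95 to -0.35. Its paralog Eif4a2 lay at 1.66 and 1.72, or 3.23-fold higher (limma adjusted p 0.0014). The 2 helicases were thus 2.89 ± 0.05 apart on the log2 scale (SD, n = 2 arrays). The helper proteins of the helicase were higher, with Eif4h at 1.07 and 1.09 and Eif4b at 0.58 and 0.60. The scaffold Eif4g1 was lower at -1.07 and -1.10, its relative Eif4g3 was lower by less (-0.27 and -0.32, a call that ended on centring), and Eif4g2, a relative that does not bind eIF4E, was higher at 0.52 in both arrays.

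The cap-binding protein Eif4e lay at -0.38 and -0.35, a call that ended with array medians subtracted. Its relatives diverged, with Eif4e2, a cap-binding repressor, at -1.42 in both arrays and Eif4e3 at 0.61 and 0.57. The proteins that hold eIF4E inactive diverged as well. Eif4ebp1 lay at -1.55 in both arrays, 2.93-fold lower in lung, and Eif4ebp2 at 0.93 and 1.07, 2.00-fold higher, a gap of 2.55 ± 0.10 (SD, n = 2 arrays). The transport protein Eif4enif1 was lower at -0.57 and -0.53.

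Factors of start-site selection and subunit joining were uneven. Eif5a, the hypusine-bearing factor that helps ribosomes through difficult peptide bonds, lay at -1.38 and -1.35, and its paralog Eif5a2 at -1.45 and -1.33, so the pair had close ratios, though the Eif5a2 probes ran from -2.32 to -0.78. Eif1a was 3.12-fold lower at -1.68 and -1.61, and its X-linked relative Eif1ax was lower by less (-0.50 and -0.49). Eif5b, the GTPase of subunit joining, was higher at 0.69 and 0.67. Eif5, the GTPase activator of eIF2, lay at 0.23 and 0.16 with probes on both sides of 0 (-0.49 and 0.88). Eif1b and Eif6 did not pass. The alternative initiator-tRNA carrier Eif2d was lower at -1.07 and -0.97, and Eif2a did not pass at 0.12 and 0.06.

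**Figure D3:**
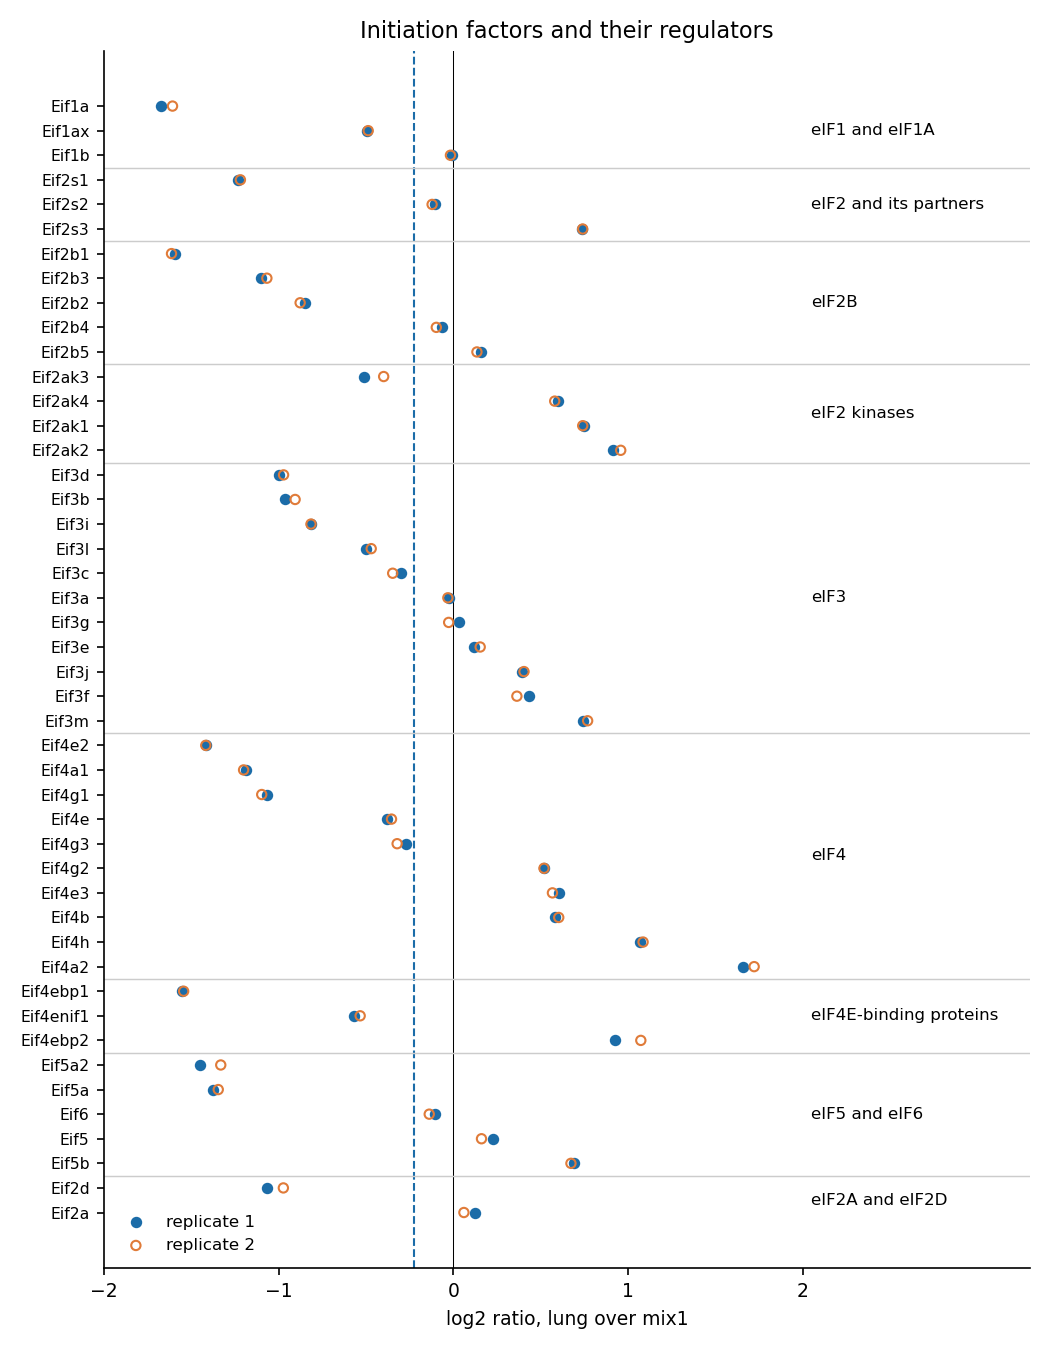
Log2 ratio of lung over mix1 for initiation factor genes grouped by complex, with filled and open circles for replicates 1 and 2, without Eif2s3y, the Argonautes and Eif1ad. The dashed line is the median of all genes (-0.22). Most complexes span both sides of 0, and Eif4a1 and Eif4a2 as well as Eif4ebp1 and Eif4ebp2 stand on opposite sides of 0.

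Among elongation factors, the subunits of the eEF1 complex differed. Eef1a1, the abundant carrier of charged tRNA, lay at 0.08 and 0.07 and did not pass (limma adjusted p 0.122). In its exchange complex, Eef1g was 2.10-fold lower at -1.10 and -1.04, Eef1d was lower at -0.41 and -0.40, and Eef1b2 lay at -0.06 and -0.10 without passing. The translocase Eef2 was lower at -0.67 and -0.65. Its kinase Eef2k and the selenocysteine factor Eefsec did not pass (0.19 and 0.12; 0.08 and 0.11). With array medians subtracted, Eef1a1, Eef2k and Eefsec were called higher, at 0.30, 0.37 and 0.31, and the Eef1d call was lost.

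The muscle and nerve form Eef1a2 was the 1 elongation factor gene called higher, at 1.41 in replicate 1 and 0.68 in replicate 2 (limma adjusted p 0.0491, and 0.0544 with robust moderation, where the call ended). The arrays were further apart for it than for most members. The muscle form of a ribosomal protein, Rpl3l, had the same shape, at 1.19 and 0.47, and did not pass (limma adjusted p 0.0722). Of 7 markers of striated muscle, 5 were higher in lung and none lower (median 3.16), and replicate 1 was the higher array for 6 of the 7: creatine kinase (Ckm) lay at 4.11 and 2.21, myoglobin (Mb) at 1.14 and 0.42 without passing, and troponin T (Tnnt2) at 3.44 and 2.77, whereas Actn2 ran the other way at 0.13 and 0.37 and did not pass. The part of muscle cells in the Eef1a2 and Rpl3l ratios was not tested.

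Ribosomal protein genes held to a narrower band than all genes, though not than every other class. The quartiles of the gene means were -0.38 and 0.52, against -0.75 and 0.57 for all genes. Those of initiation factor genes were -0.99 and 0.43, of elongation factor genes -0.66 and 0.09, and of synthetases -1.49 and -0.69. Large-subunit genes (19 higher, 17 lower of 50, median 0.02) and small-subunit genes (10 higher, 12 lower of 25, median -0.07) had close medians. These counts are 38% higher and 34% lower for the large subunit and 40% and 48% for the small subunit. Among all genes, 32.9% were higher and 49.7% lower. At the upper end stood Rps26 at 1.82 and 1.81, 3.51-fold higher in lung (limma adjusted p 0.0012), Rps29 at 1.53 and 1.48, Rps15al1 at 1.47 and 1.46 and Rpl34 at 1.35 and 1.38. Rpl35a (1.11 and 1.05) and Rpl30 (1.04 in both arrays) were the other members that reached 2-fold on each array. At the lower end, Rps20 lay at -1.26 and -1.15 and Rps2 at -1.24 and -1.17, each about 2.3-fold lower, with all 4 Rps2 probes below 0 (from -1.45 to -0.74). Rpl13 (-0.93 and -0.95), Rpl7a (-0.98 and -0.88), Rpl7l1 (-0.94 and -0.90) and Rps6, the substrate of the S6 kinases (-0.89 and -0.85), followed. Each of these genes thus had close values in both arrays, and the gaps between the upper and lower ends were many times wider.

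A different case was Rpl39l1 (annotated as Rpl39l), a paralog of Rpl39 that is known from mouse as a male germ cell ribosomal protein. Its single probe lay at -6.77 in both arrays, 109-fold lower in lung (limma adjusted p 0.0012), whereas Rpl39 lay at 0.00 and 0.05 and did not pass. It was the lowest value of the 152 genes. The background subtraction is unknown here, and the size of a ratio with 1 dim channel depends on it.

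Ribosomal protein genes have many near-identical copies in mammalian genomes, and probes may read more than 1 of them. Rps15a lay at 0.87 and 0.93 and its copy Rps15al1 at 1.47 and 1.46. Rpl30 (1.04) and the pseudogene Rpl30-ps10 (0.76 and 0.78) were both higher, and Rpl37a (-0.20 and -0.16) and the pseudogene Rpl37a-ps1 (-0.07 and -0.01) were both near 0. Rpl37 and Rpl37l1, whose probes are both annotated as Rpl37, differed more. Rpl37 was higher at 0.79 and 0.92, and Rpl37l1 lay at -0.13 and 0.11 and did not pass. The 7 probes of Rpl21 ran from -0.15 to 0.80. Ratios of such genes are uncertain to about this extent.

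**Figure D4:**
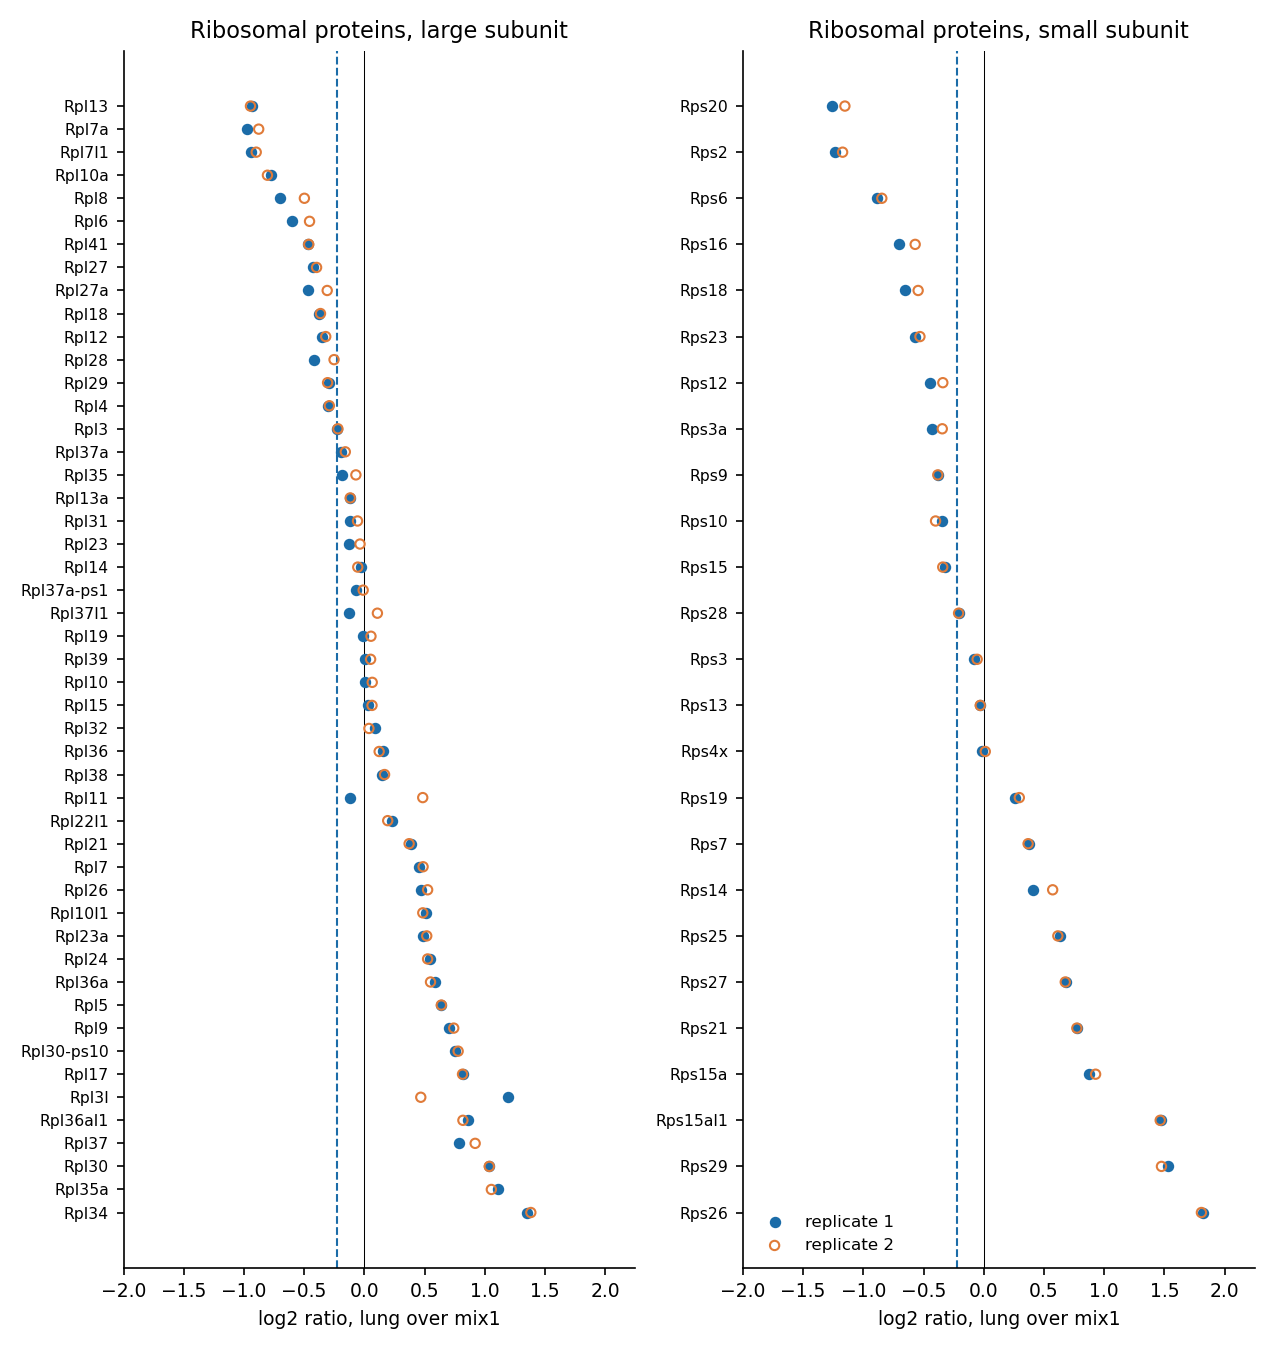
Log2 ratio of lung over mix1 for the large-subunit (left) and small-subunit (right) ribosomal protein genes, sorted by mean, with filled and open circles for replicates 1 and 2 and without Rpl39l1 at -6.77. The dashed line is the median of all genes (-0.22). Genes run evenly through 0 from -1.21 (Rps20) to 1.81 (Rps26), and Rpl3l and Rpl11 have the widest gap between arrays.

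mRNAs of ribosomal proteins are known for a terminal oligopyrimidine (TOP) start, a C followed by a run of C and T, through which mTOR controls their translation. Counted as a C at the annotated start and at least 4 further pyrimidines, it was present in 21 of 62 ribosomal protein windows (33.9%), against 2.63% of all windows, 1 of 47 initiation factor genes and none of the elongation factor genes or synthetases. Annotated starts can be off by some bases, so a missing TOP start says nothing about the mRNA. The 3 genes at least 2-fold higher in both arrays that have one are shown, with the pyrimidine run in capitals:
Rps26 (chr7:1643385-1643424, minus strand): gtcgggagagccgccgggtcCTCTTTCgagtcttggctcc
Rpl34 (chr2:221962264-221962303, minus strand): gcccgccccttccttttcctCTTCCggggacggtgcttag
Rpl35a (chr11:81235002-81235041, minus strand): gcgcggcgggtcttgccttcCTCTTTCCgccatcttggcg
With the TOP start, 9 genes were higher and 6 lower (median 0.03), and without it 14 were higher and 20 lower of 41 (median -0.12). Among all genes, 32.9% were higher and 49.7% lower. The count was made after the values were seen and without a test. Because annotated starts can be off, it does not separate mRNAs with a TOP start from those without.

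Some paralogs carried opposite ratios. Of 11 listed pairs with both genes measured, 4 were at least 2-fold apart in both arrays: Rpl39 and Rpl39l1, Eif4a1 and Eif4a2, Eif4ebp1 and Eif4ebp2, and Eif4e and Eif4e2. In 5 pairs the signs were opposite in both arrays, but Rpl39 and Rpl3l did not pass and the Eif4e call ended on centring. Eif4a1 and Eif4a2, like Eif4ebp1 and Eif4ebp2, were called in opposite directions both as deposited and after centring. Eif4e and Eif4e3 were 0.96 ± 0.05 apart and Eif4g1 and Eif4g3 0.79 ± 0.02 (SD, n = 2 arrays). Eef1a2 exceeded Eef1a1 by 1.34 in replicate 1 and 0.61 in replicate 2, and Rpl3l exceeded Rpl3 by 1.42 and 0.69. Rpl36a and Rpl36al1, Rpl10 and Rpl10l1, and Eif5a and Eif5a2 were less than 0.51 apart in each array. These gaps do not depend on the centring, since both genes shift alike, whereas the signs of the genes can.

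**Figure D5:**
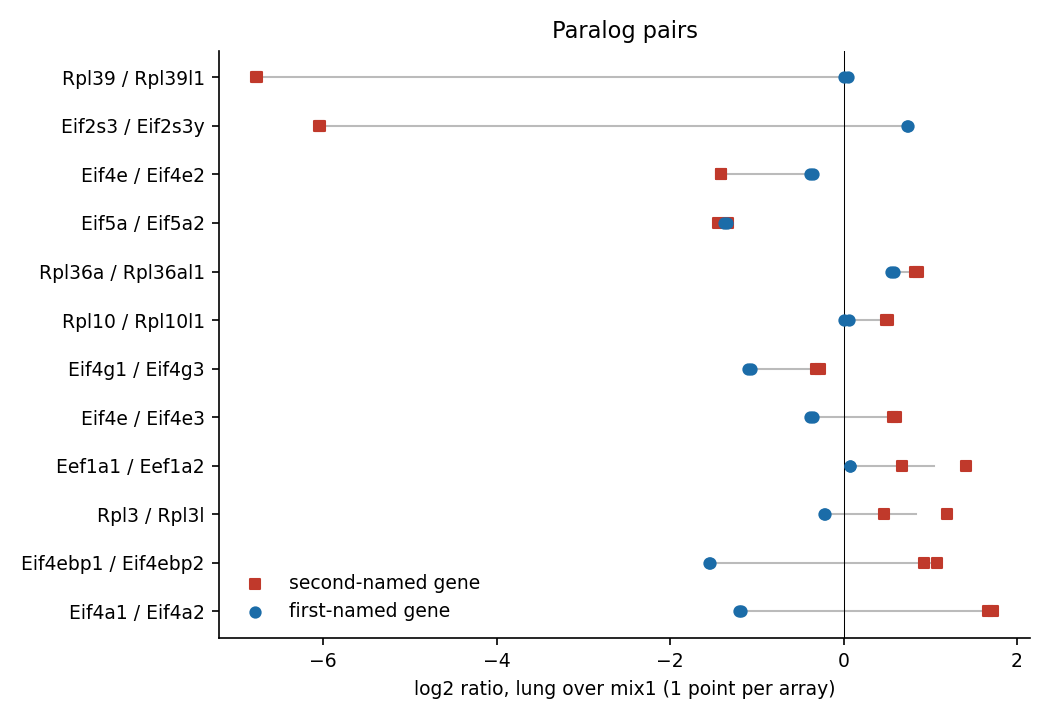
Log2 ratios of lung over mix1 for paralog pairs, 1 point per gene and array, joined by a line between the gene means; Eif2s3 and Eif2s3y were added after the values were seen. Circles are the first-named gene and squares the second. Rpl39l1 and Eif2s3y lie far left of their partners, and Eif4a2 and Eif4ebp2 lie right of 0 while Eif4a1 and Eif4ebp1 lie left of it.

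Most genes that build ribosomes were lower in lung. Of 39 measured ribosome biogenesis genes, 32 were lower, 4 higher and 3 did not pass (median -0.69, and after centring 27 lower and 7 higher). Examples are the small-subunit assembly factor Bysl at -1.82 and -1.84, Nop14 at -1.76 and -1.84, nucleophosmin (Npm1) at -0.80 and -0.81 and nucleolin (Ncl) at -0.73 and -0.69. The highest, Wdr43, lay at 0.44 and 0.67. Of 12 factors of termination and recycling, 8 were lower and 3 higher (median -0.49), and after centring 6 and 3 (median -0.27), beside 49.7% of all genes lower as deposited and 37.9% after centring. The release factor Etf1 lay at -0.72 and -0.71, the recycling factor Abce1 at -0.63 in both, the rescue factor Pelo lowest at -1.09 and -1.05, and the quality control factor Nemf highest at 1.35 and 1.32.

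Regulators of translation were mixed. Of 19 cap, poly(A) and mRNA-repressing proteins, 11 were lower (57.9%) and 6 higher (31.6%), with a median of -0.52, beside 49.7% lower and 32.9% higher among all genes. The poly(A)-binding protein Pabpc4 was lowest at -2.29 and -2.27, the TOP mRNA-binding protein Larp1 lay at -1.85 and -1.60, and Pdcd4, an inhibitor of the eIF4A helicase, was highest at 1.23 and 1.20. Of 18 mTOR pathway genes, 10 were lower and 5 higher (median -0.21, and after centring 8 and 8), from Tsc1 at -1.34 and -1.44 to the kinase Rps6ka1 at 2.40 and 2.42. Mtor itself was higher at 0.36 and 0.32. Of 10 genes of the MYC family and its partners, 6 were lower and 3 higher (median -0.28, and after centring 3 and 3), with Mxd3 at -2.07 and -2.02, Myc at -0.44 and -0.45 and Mycn at 0.88 and 0.97.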

How the data were processed

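RNA of 2 lung samples was hybridised against mix1 on 2-colour arrays. Agilent Feature Extraction is named in the submitters' processing notes, without a version or settings for background and dye. The series table gives a value for each probe on each array, taken as log2 because base 10 would exceed a scanner's range; neither base nor centring is stated. These log2 ratios, as deposited, had array medians over all probes of -0.16 and -0.21.

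GEO's platform annotation named 20417 of 40012 probes, and symbols were brought up to date from the GRCr8 gene table by RefSeq accession (16987), current symbol (3035) or synonym (387), with 8 left as they were. Probes of a gene were averaged (62 of the 152 members had several). Limma 3.58.1 (R 4.3.3) fitted a mean per gene by lmFit and eBayes, and p-values were adjusted by Benjamini-Hochberg over 15611 genes with a threshold of 0.05 (1 residual and 1.28 prior degrees of freedom). The spread of mix1 is left out. The fit was tested on simulated data.

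Members, lists, motifs and pairs were chosen with earlier results of these data known. The text names members at least 2-fold from 0 in both arrays, the 3 highest and lowest of each class, all synthetases, paralog pairs, members whose probes lie 2-fold apart, and the ends of each list; further genes were named after their values were seen. Alternatives were centring on the array medians, equal spread of the arrays, robust eBayes, treat, the median probe (the lower of the middle ones), single probes, an adjusted p under 0.01, core names only, and leaving out each array.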

Additional observations from a re-analysis of the deposited data

How the results depend on the processing

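Of the synthetases, 16 were lower as deposited; between 14 and 16 were lower under every gene-level alternative but treat, which called 9, and none was higher. Their median was -1.10 with array medians subtracted, -1.52 with the median probe and -1.04 over single probes. Treat lowered every other count: all genes to 2143 higher and 1881 lower, ribosomal proteins to 4 and 2, initiation factor genes to 2 and 10, and elongation factor genes to 0 and 0. Single probes, which are more numerous, gave 48 higher and 49 lower for ribosomal proteins, 32 and 45 for initiation factor genes, and 3 and 7 for elongation factor genes. With array medians subtracted, 14 ribosomal protein genes were lower and 4 elongation factor genes higher, and the medians turned to 0.21 for ribosomal proteins, 0.10 for initiation factor genes and 0.14 for elongation factor genes. That fit had 7.95 prior degrees of freedom, against 1.28 as deposited, and every mean was also shifted, so the parts of the 2 changes cannot be told apart. The single higher elongation factor, Eef1a2, was lost with robust eBayes and at an adjusted p under 0.01 (0 higher each). The median probe moved the class medians to -0.082, -0.22 and -0.40 for ribosomal proteins, initiation and elongation factor genes. For a gene with 2 probes it takes the lower one, so it lowers such genes by construction, those among the synthetases included. Its downward moves are therefore no independent check. Single probes moved the medians of initiation and elongation factor genes to -0.23 and -0.40, and core names only that of initiation factor genes to -0.21. In 1 array alone, the ribosomal protein median was between -0.029 and 0.012, that of initiation factor genes between -0.16 and -0.13, that of elongation factor genes between -0.10 and -0.06, and that of synthetases between -1.32 and -1.30; counts have no test with 1 array.

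Of the named members, Hars1 turned to 0.079 with array medians subtracted, and with the median probe Eef2k turned to -0.57, Eif3a to 0.41 and Eif5 to -0.49. Eefsec and Rpl10, which passed neither as deposited nor with the median probe, turned with it to -0.083 and -0.082. For a gene with 2 probes the median probe is the lower one, and Eef2k, Eif5, Eefsec and Rpl10 took that value. Eif3a took the middle of its 3 probes, and Hars1 turned through the upward shift of the centring. Why the probes of a gene differ was not tested. Making the spread of the arrays equal changed no call of a named member. No paired analysis was possible because there is 1 group.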

Other observations

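The Argonaute genes, which bind small RNAs and came in through their former Eif2c names, differed among themselves. Ago4 was higher in lung at 1.64 and 1.82 in replicates 1 and 2, 3.32-fold in the mean, Ago2, the cleaving Argonaute, was lower at -1.37 and -1.35, and Ago1 was lower at -0.61 and -0.84. Ago3 lay at -0.20 and 0.78 and did not pass (limma adjusted p 0.48). Each had 1 probe.

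Arrays disagreed for few members: 4 of 152 had an SD over 0.2 on the log2 scale, namely Ago3, Eef1a2, Rpl3l and Rpl11, the last at -0.12 and 0.48. Probes of a gene disagreed more often. Of 62 members with several probes, 11 had probes at least 2-fold apart, and in 7 of these the probes lay on both sides of 0 (Eef2k, Eif1ax, Eif3a, Eif4b, Eif4g2, Eif5 and Eprs1). The median span between the probes of a member was 0.52, against the median SD of 0.023 between arrays, so the arrays' SD understates the uncertainty of a gene's ratio.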
